A study of Homo sapiens with 3 samples.

Results

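The mitochondrial ribosomal protein genes were taken as every listed gene whose name is MRPL or MRPS followed by digits and at most 1 letter. The rule found 78 of 58039 listed genes, 49 with a large subunit name (MRPL) and 29 with a small subunit name (MRPS), on 21 chromosomes. They were followed in T47D, a human breast cancer line that expresses the estrogen receptor, after knockdown of the long noncoding RNA ERINA. The tested cells carried a short hairpin RNA (shRNA) against ERINA, either shRNA1 or shRNA2, with 1 library each. The reference was 1 control library, whose description names a control hairpin while its shRNA label reads None. Per the labels' protocols, the constructs came in by lentivirus and puromycin selection gave stable cells, and no time after infection is given. No condition had a repeat library, so every p-value below rests on how far the 2 hairpin libraries lie apart, whether from the hairpins or from technical spread.

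Mitochondria make the few proteins encoded in their own genome on ribosomes of their own. The 2 rRNAs of this mitoribosome are transcribed from mitochondrial DNA, whereas all of its proteins are encoded in the nucleus, made in the cytosol and imported. The large subunit forms peptide bonds and holds the exit tunnel, and the small subunit binds and decodes the mRNA. Its protein products are nearly all membrane subunits of the respiratory chain and the ATP synthase, which sit in the inner membrane.

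Levels are FPKM, that is, fragments per kilobase of transcript and per unit of mapped fragments. ERINA is a RefSeq synonym of LINC00992 (ENSG00000248663), which stood at 5.21 FPKM with shRNA1 and 8.91 FPKM with shRNA2, against 63.4 FPKM in the control. Its log2 difference was -3.12 (SE 0.33), with a limma Benjamini-Hochberg adjusted p of 0.0816. Total FPKM was 860240 with shRNA1, 808451 with shRNA2 and 790290 in the control, and the depth was estimated at 28800000, 29200000 and 27900000 fragments in the same order. All 7 luminal markers were present, at 16.5 to 5210 FPKM with shRNA1, 18.0 to 4281 FPKM with shRNA2 and 16.8 to 3152 FPKM in the control. Basal, immune and endothelial markers stayed at or below 1.36, 1.63 and 1.53 FPKM in those libraries, and CD3E, a T cell marker, was listed at 0 in all 3. The highest stromal marker was COL1A1 in the control, at 5.16 FPKM, with 1.65 FPKM under shRNA1 and 2.10 FPKM under shRNA2.

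Promoters of 69 of the 78 genes were in the RefSeq table (GRCh38.p14), each running from 250 bases before to 50 bases after the transcription start. Words of 7 or 8 letters that ETS factors and YY1 are known to bind were searched on both strands, as exact matches. The ETS word was CCGGAAG and the YY1 word was AAGATGGC. The last 3 letters of the first are the first 3 of the second, so hits can overlap, which happened in 0 of the 69 promoters. The 3 promoters printed first hold both words, which stand in capitals on whichever strand they read, and the fourth belongs to MRPL24, the gene with the largest log2 difference among those past the expression filter, and holds neither. The MRPL24 window lies wholly inside the GENCODE span of the gene (chr1:156737303-156741590), so bases upstream of that span were not searched.
MRPL47 (chr3:179604589-179604888, minus strand): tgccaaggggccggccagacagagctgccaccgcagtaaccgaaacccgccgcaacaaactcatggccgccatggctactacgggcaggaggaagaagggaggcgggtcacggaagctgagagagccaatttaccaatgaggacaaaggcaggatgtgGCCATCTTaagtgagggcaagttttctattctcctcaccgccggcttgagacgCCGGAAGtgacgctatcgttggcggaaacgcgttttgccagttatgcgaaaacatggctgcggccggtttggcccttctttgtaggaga
MRPL20 (chr1:1407244-1407543, minus strand): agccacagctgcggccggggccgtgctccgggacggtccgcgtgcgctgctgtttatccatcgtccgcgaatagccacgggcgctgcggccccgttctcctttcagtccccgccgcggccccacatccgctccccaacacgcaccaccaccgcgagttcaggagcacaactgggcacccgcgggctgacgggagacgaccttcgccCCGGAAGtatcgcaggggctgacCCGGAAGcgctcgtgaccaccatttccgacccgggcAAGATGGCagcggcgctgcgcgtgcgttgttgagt
MRPS10 (chr6:42217812-42218111, minus strand): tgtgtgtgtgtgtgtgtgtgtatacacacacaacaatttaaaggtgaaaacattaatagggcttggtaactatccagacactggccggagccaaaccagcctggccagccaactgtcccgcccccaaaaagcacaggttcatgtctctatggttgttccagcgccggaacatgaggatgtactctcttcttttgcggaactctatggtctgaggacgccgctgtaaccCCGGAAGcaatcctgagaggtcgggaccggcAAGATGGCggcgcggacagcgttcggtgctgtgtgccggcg
MRPL24 (chr1:156741039-156741338, minus strand): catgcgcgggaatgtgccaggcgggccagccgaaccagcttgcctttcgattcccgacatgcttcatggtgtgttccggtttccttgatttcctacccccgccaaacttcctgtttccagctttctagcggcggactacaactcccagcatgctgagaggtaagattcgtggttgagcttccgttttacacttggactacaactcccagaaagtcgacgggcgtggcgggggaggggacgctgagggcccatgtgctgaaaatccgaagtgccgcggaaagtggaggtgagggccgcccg

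The ETS word was in 29 of 69 promoters of the mitochondrial ribosomal protein genes (42.0%), against 20.7% of the 8971 promoters of protein-coding genes past the expression filter and 10.7% of all 27305 promoters. The YY1 word was in 20 of 69 (29%), against 5.9% and 3.0%. Either word was present in 41 (59.42%), against 25.1% and 13.1%, and both words in 8 (11.59%), against 1.47% and 0.6%. The 8 with both were MRPL20, MRPL38, MRPL47, MRPL51, MRPL52, MRPS10, MRPS12 and MRPS18A. The subunits were alike in these shares: the ETS word stood in 40.5% of 42 large and 44.4% of 27 small subunit promoters, and the YY1 word in 28.6% and 29.6%. A match is a stretch of letters, not a measured binding site.

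The words kept different places. Of the 20 promoters with the YY1 word, the hit nearest the start lay after it in 15, with a median position of 12 counted from the first transcribed base as 1, and 16 read on the gene's own strand. Of the 29 with the ETS word, the nearest hit lay in the 100 bases before the start in 19, with a median position of -18. Of the other words, most were less frequent than in the promoters of tested protein-coding genes. GGGCGG, the GC box, was in 60.9% against 71.9%, CCAAT in 29% against 37.3%, CACGTG, the E-box, in 8.7% against 10.3%, and TATAAA in 2.9% against 4.9%. The word GCATGCGC, the core of the element bound by NRF1, a regulator of nuclear genes for mitochondria, was more frequent, in 8.7% (6 promoters) against 5.9%, but with GC placed before it the word was in 1.4% against 2.4%.

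**Figure D1:**
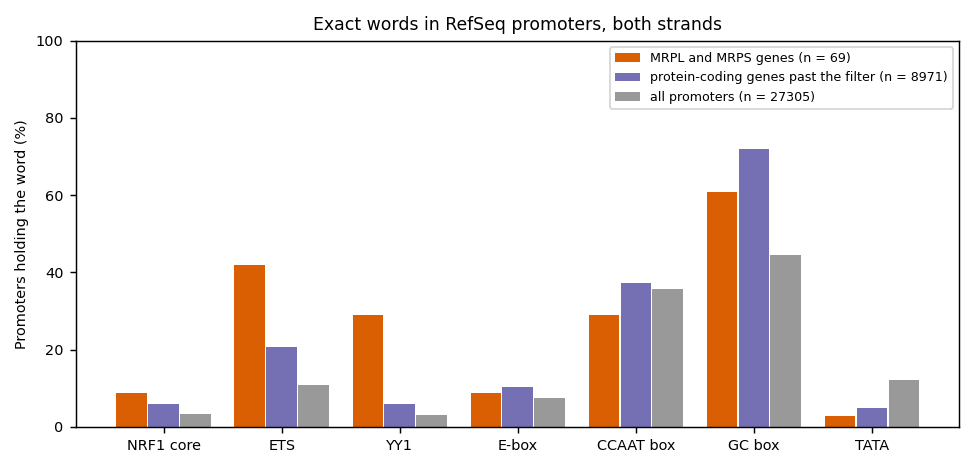
Share of promoters (percent, y axis) that hold each exact word (x axis) on either strand, for 69 mitochondrial ribosomal protein genes, 8971 protein-coding genes past the expression filter and all 27305 RefSeq promoters. The ETS bar reaches 42.0% and the YY1 bar 29% for the mitochondrial ribosomal protein genes, against 20.7% and 5.9% for the tested protein-coding genes.

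Genes with and without these words had medians close to 0 in the knockdown. The median log2 difference was -0.06 in 29 genes with the ETS word and -0.01 in 40 without it, and -0.01 in 20 genes with the YY1 word and -0.02 in 49 without it. YY1, GABPA and GABPB1 were not called by limma over all genes, and no other ETS factor is given here. YY1 mRNA was at 58.4 FPKM with shRNA1 and 66.3 FPKM with shRNA2, against 75.8 FPKM in the control (log2 -0.28, SE 0.11, adjusted p = 0.194). GABPA, the DNA-binding subunit of the ETS factor NRF-2, was at 11.4 and 11.7 FPKM, against 11.1 FPKM in the control. GABPB1, its partner subunit, was at 16.9 and 18.5 FPKM, against 20.5 FPKM in the control (log2 -0.21, SE 0.11, adjusted p = 0.272).

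Mitochondrial ribosomal protein mRNAs were abundant and close together in level. Past the filter, a mean of at least 1 FPKM over the 3 libraries, were 77 of the 78 genes, 48 large and 29 small, and their control levels ran from 7.17 to 149.6 FPKM. The quartiles of the control level were 41.7 and 81.0 FPKM, and 59 of 77 genes lay between 30 and 100 FPKM. The median large subunit gene stood at 57.5 FPKM with shRNA1, 55.5 FPKM with shRNA2 and 60.4 FPKM in the control. The median small subunit gene stood at 57.4 FPKM with shRNA1, 59.8 FPKM with shRNA2 and 59.6 FPKM in the control. The subunits thus had similar medians in every library, while their transcripts differ in length, with medians of 933.5 nt for large and 1281 nt for small subunit genes.

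The highest control levels belonged to small subunit genes. MRPS24, whose protein is the counterpart of bacterial S3 at the mRNA entrance, was at 159.8 FPKM with shRNA1 and 153.4 FPKM with shRNA2, against 149.6 FPKM in the control. MRPS34, a protein found only in mitochondrial ribosomes, was at 169 and 147 FPKM, against 148 FPKM in the control. MRPS18B, which has 2 sister genes described below, was at 141 and 142 FPKM, against 138 FPKM in the control. In these 3 genes the control lay below or between the hairpin libraries, and no mean log2 difference exceeded 0.09.

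At the low end, MRPL50, a mitochondrion-specific large subunit protein, was at 9.01 and 8.72 FPKM, against 7.17 FPKM in the control. MRPS31, also specific to mitochondria, was at 12.8 and 13.5 FPKM, against 14.7 FPKM in the control. MRPL23, the counterpart of the bacterial exit tunnel protein L23, was the only gene under the filter. It was listed at 0.193 FPKM with shRNA1 and 0.267 FPKM with shRNA2, against 0.707 FPKM in the control, about 4, 5 and 13 fragments, and every deposited lower bound was 0. Its deposited locus also spans MRPL23-AS1, listed at 0 in all 3 libraries, and no fold is given at this depth.

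**Figure D2:**
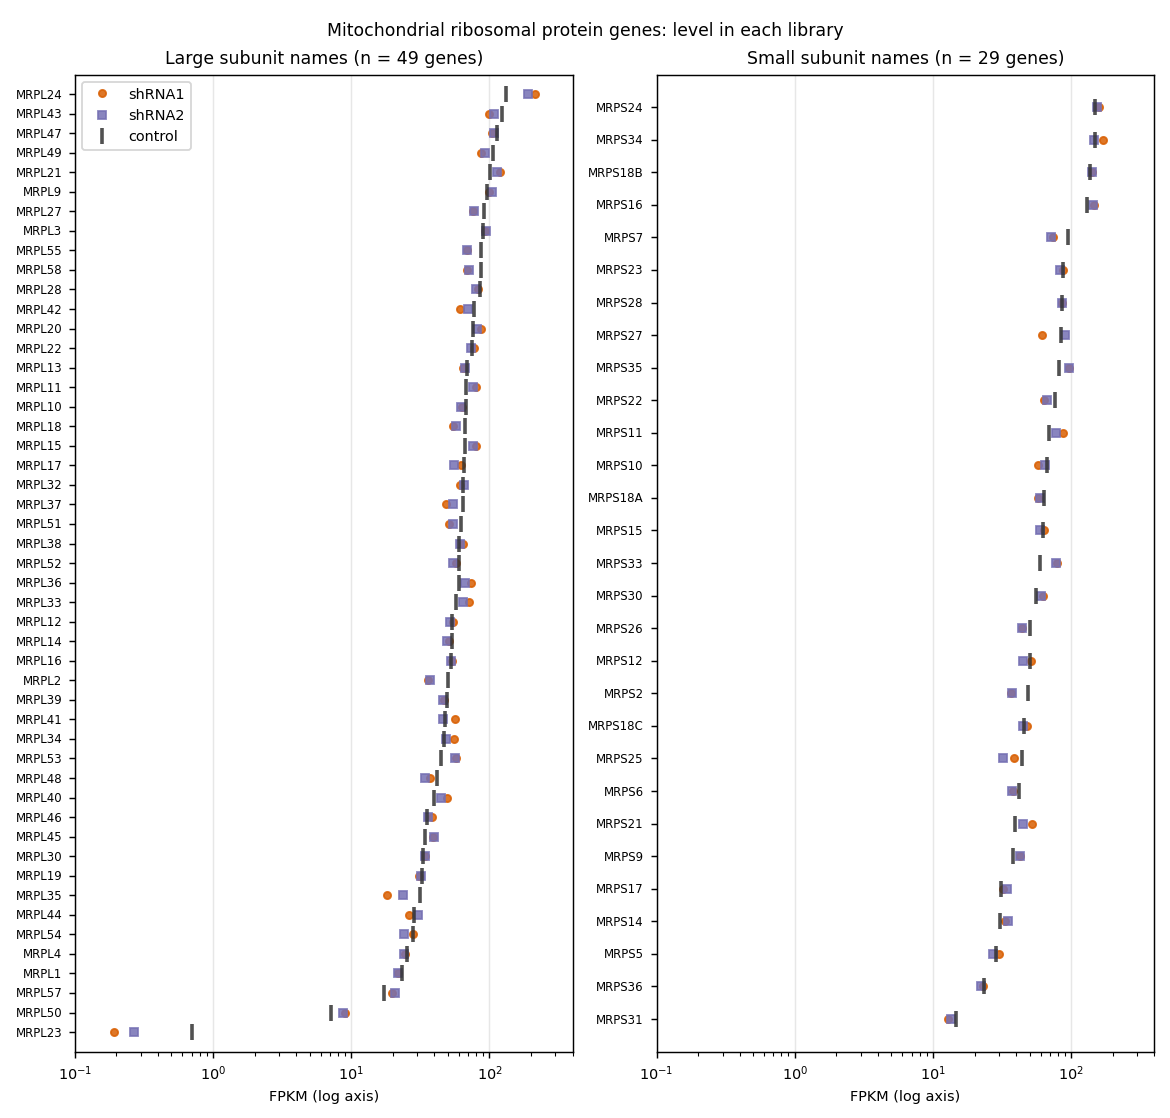
FPKM (log axis) of each of the 49 large (left) and 29 small (right) subunit genes in the shRNA1, shRNA2 and control libraries, 1 point per library, ordered by the control level. Most genes lie between 30 and 100 FPKM in the control, with the 3 libraries close together, and MRPL23 stands alone below 1 FPKM.

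Summed over each subunit, the mRNAs hardly differed. The 48 large subunit genes summed to 2961 FPKM with shRNA1 and 2913 FPKM with shRNA2, against 2947 FPKM in the control. The 29 small subunit genes summed to 1971 FPKM with shRNA1 and 1940 FPKM with shRNA2, against 1938 FPKM in the control. The ratio of the large to the small sum was 1.502 with both hairpins and 1.521 in the control. Knockdown over control ratios of the large sum were 1.005 and 0.989, and of the small sum 1.017 and 1.001. All sums lay within 2% of the control. As a share of total FPKM, the genes made up 0.573% with shRNA1, 0.600% with shRNA2 and 0.618% in the control, where the total itself was lowest.

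Gene by gene, differences were computed on log2(FPKM + 0.5). The median was 0.003 with shRNA1 and -0.037 with shRNA2 over the 77 genes, against -0.0006 and 0 over all 13112 genes past the filter. For large subunit genes the median was -0.03 with shRNA1 and -0.05 with shRNA2, and for small subunit genes 0.04 and -0.02. The large minus small difference of the medians was -0.066 with shRNA1 and -0.029 with shRNA2, -0.032 on the mean of both hairpins, and it was 0.005 after a trend on transcript length and GC content was removed. With 1 control against 2 hairpin libraries an exact permutation test cannot go below 0.333 (one-sided), so this difference was not tested.

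Neither direction prevailed. Higher with both hairpins were 30 of 77 genes (39.0%, against 42.4% of all tested genes), and lower with both were 35 (45.5%, against 42.6%), with 12 mixed. The split was 19 higher and 23 lower among 48 large, and 11 higher and 12 lower among 29 small subunit genes. Both comparisons share the control library, so a control value that is off by chance moves both hairpin differences the same way. With the libraries brought to the same total FPKM the counts were 20 higher and 45 lower, while the median of all tested genes itself was then at -0.07 and that of the 77 genes at -0.09.

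Differences were small in most of the family. The median absolute log2 difference was 0.15 over the 77 genes, against 0.23 over all tested genes. Within 1.2-fold of the control with both hairpins were 52 of 77 (67.5%), 31 of 48 large (64.6%) and 21 of 29 small (72.4%), against 43.2% of all tested and 45.9% of tested protein-coding genes. The hairpin libraries were also closer to each other here, with a median absolute log2 difference of 0.07, against 0.12 over all tested genes. All tested genes include many at lower levels, with a control median of 11.6 FPKM against 60.4 FPKM here, and the part of level in these shares was not tested.

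By limma over all genes, 0 of 77 genes were called higher or lower at an adjusted p under 0.05, against 0.351% of all tested genes (0.0839% higher, 0.267% lower). The lowest adjusted p was 0.0876, for MRPL24. Unadjusted p-values under 0.05 went to 13 of 77 genes, 4 higher and 9 lower, against 29.7% of all tested genes. Deposited intervals of both hairpin libraries lay clear of the control interval in 0 genes, against 0.0839% of genes above and 0.221% below. At least 1.2-fold higher with both hairpins were 4 genes (5.2%, against 15.8%), and at least 1.2-fold lower were 6 (7.8%, against 18.8%).

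Limma run on the 11546 protein-coding genes alone gave other calls. MRPL24, MRPL53 and MRPS33 were then called higher (3 genes, against 7.11% of protein-coding genes), and MRPL2, MRPL35, MRPL55, MRPS2 and MRPS7 lower (5 genes, against 11.3%). These 8 are 5 large and 3 small subunit genes, against 18.4% of protein-coding genes called in either direction. Their adjusted p-values over all genes were 0.0876 to 0.140, so none of these calls held there.

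**Figure D3:**
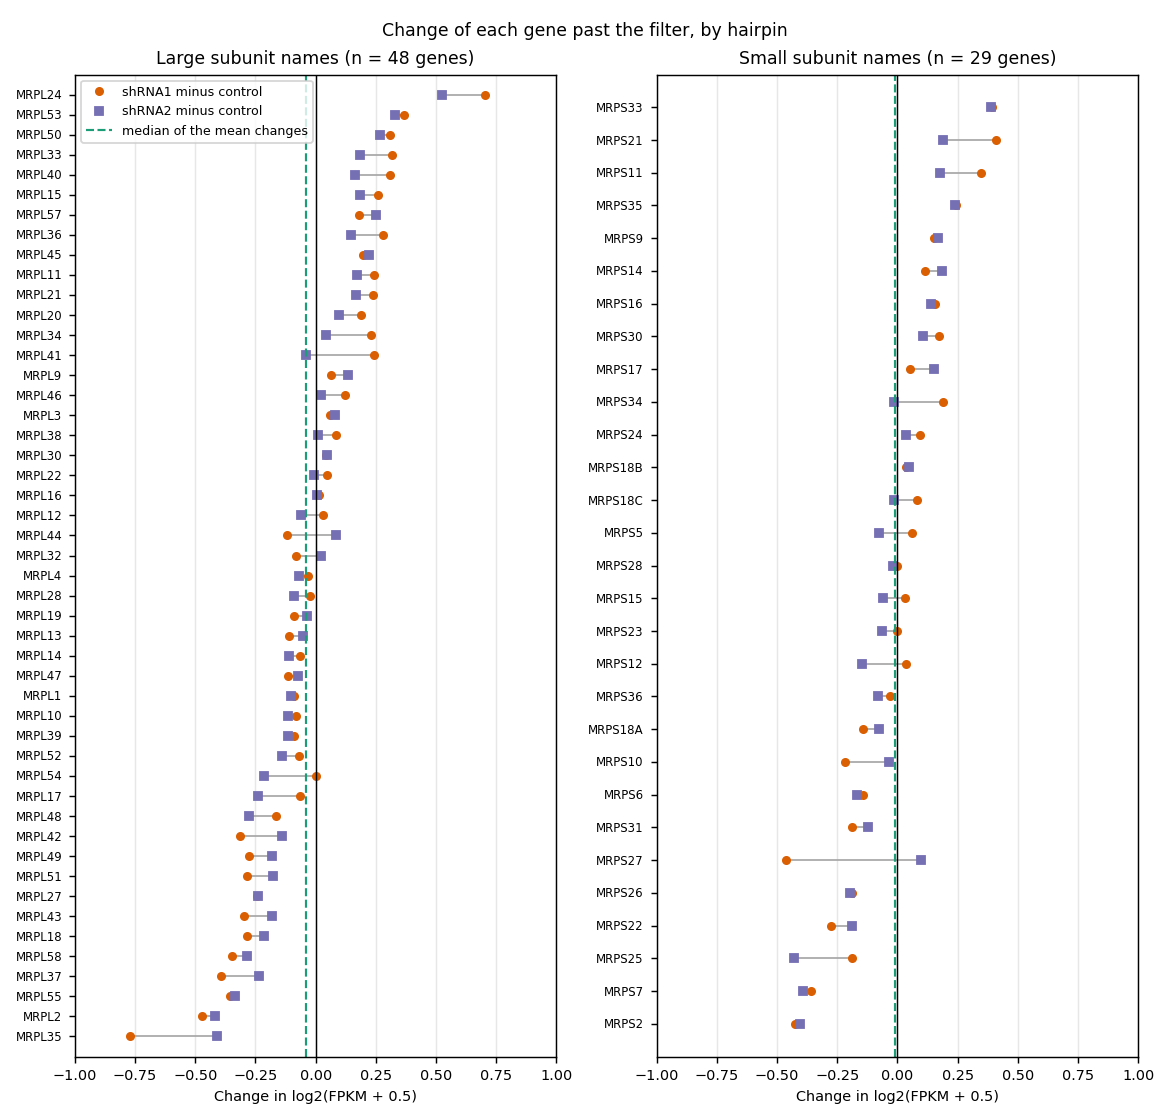
Difference in log2(FPKM + 0.5) of shRNA1 and of shRNA2 from the control for each of the 48 large (left) and 29 small (right) subunit genes past the filter, joined by a line per gene and ordered by their mean. The dashed line is the median of the mean differences, -0.04 for large and -0.01 for small subunit genes, and MRPL24 at the top and MRPL35 at the bottom of the large subunit lie farthest out.

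Among large subunit genes, MRPL24 (chr1:156737303-156741590, GRCh38) had the largest positive difference. Its protein is the counterpart of bacterial L24, which sits near the exit of the peptide tunnel and binds early in assembly. It stood at 215 FPKM with shRNA1 and 190 FPKM with shRNA2, against 132 FPKM in the control. The control lay below both hairpin libraries, but the deposited intervals overlapped, from 138 to 292 and 121 to 260 FPKM against 84.2 to 179.9 FPKM. The mean ratio was 1.54 (1.63 with shRNA1, 1.44 with shRNA2), and the log2 difference was 0.61 (SE 0.11, adjusted p = 0.0876). It overlapped no other annotated gene.

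MRPL53, a mitochondrion-specific large subunit protein, was at 57.5 and 55.9 FPKM, against 44.4 FPKM in the control (log2 0.35, SE 0.08, adjusted p = 0.104). MRPL50, given above, had a log2 difference of 0.29 (SE 0.12, adjusted p = 0.197). MRPL33, the counterpart of bacterial L33, was at 71.1 and 64.7 FPKM, against 57.0 FPKM in the control (log2 0.25, adjusted p = 0.193). All 3 had both hairpin libraries above the control, with deposited intervals that overlapped widely. MRPL33 overlaps BRE on its own strand, at 12.8 and 15.3 FPKM, against 25.2 FPKM in the control. RBKS, on the strand opposite MRPL33, was at 6.92 and 5.56 FPKM, against 2.29 FPKM in the control. MRPL53 overlaps CCDC142 on its own strand, at 2.57 and 3.59 FPKM, against 2.70 FPKM in the control. The part of these overlaps in the values was not tested.

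On the lower side of the large subunit, MRPL35 (chr2:86199355-86213794, GRCh38), the counterpart of bacterial L35, was at 18.3 FPKM with shRNA1 and 23.6 FPKM with shRNA2, against 31.5 FPKM in the control. Both hairpin libraries lay below the control, but they also differed from each other, with log2 differences of -0.77 and -0.41, and the mean of -0.59 had an SE of 0.18 (adjusted p = 0.140). MRPL2 (chr6:43054029-43059806), the counterpart of L2 close to the peptidyl transferase centre, was at 35.9 and 37.3 FPKM, against 50.1 FPKM in the control (log2 -0.45, SE 0.09, adjusted p = 0.0905). It overlaps KLC4 on the opposite strand, listed at 12.8 and 12.2 FPKM, against 11.3 FPKM in the control. Whether fragments were counted by strand is not given in the sources used here. Such overlaps are common, with a protein-coding gene overlapping 38 of the 78 genes, and only some are given here.

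Smaller negative differences followed. MRPL55, a large subunit protein, was at 68.3 and 69.3 FPKM, against 87.5 FPKM in the control (log2 -0.35, adjusted p = 0.101). MRPL37, specific to mitochondria, was at 48.8 and 54.6 FPKM, against 64.4 FPKM in the control (log2 -0.32, adjusted p = 0.158). MRPL58, also named ICT1, is a peptidyl-tRNA hydrolase that frees stalled mitoribosomes and is also built into the large subunit. It was at 68.5 and 71.5 FPKM, against 87.2 FPKM in the control (log2 -0.31, adjusted p = 0.116).

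The proteins that form the stalk, where translation factors dock, did not move together. MRPL12, the stalk protein itself, was at 54.8 and 51.4 FPKM, against 53.7 FPKM in the control (log2 -0.02, adjusted p = 0.910). MRPL10, which anchors it, was at 63.7 and 62.2 FPKM, against 67.4 FPKM in the control (log2 -0.10, adjusted p = 0.455). MRPL11, at the stalk base, was at 80.2 and 76.5 FPKM, against 67.8 FPKM in the control (log2 0.21, adjusted p = 0.1999). The control lay between, above and below the hairpin libraries in these 3 genes. MRPL45, which ties the tunnel exit to the inner membrane, was at 39.2 and 39.9 FPKM, against 34.2 FPKM in the control (log2 0.21, adjusted p = 0.198).

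Among small subunit genes, MRPS33 (chr7:141002610-141015228, GRCh38), a mitochondrion-specific protein, had the largest positive difference. It was at 78.4 FPKM with shRNA1 and 78.2 FPKM with shRNA2, against 59.6 FPKM in the control (log2 0.39, SE 0.08, adjusted p = 0.0925). The hairpin libraries differed from each other by far less than from the control, yet all deposited intervals overlapped. MRPS21, the counterpart of bacterial S21, was at 51.8 and 44.5 FPKM, against 38.9 FPKM in the control (log2 0.30, adjusted p = 0.211). MRPS11, the counterpart of S11 on the platform, was at 87.9 and 78.03 FPKM, against 69.0 FPKM in the control (log2 0.26, adjusted p = 0.205). MRPS35, specific to mitochondria, was at 95.9 and 95.8 FPKM, against 81.0 FPKM in the control (log2 0.24, adjusted p = 0.148). In each of these genes the control was the lowest of the 3 libraries.

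The lowest difference of the small subunit was that of MRPS2 (chr9:135499984-135504673, GRCh38), the counterpart of bacterial S2. It was at 36.4 and 37.0 FPKM, against 49.1 FPKM in the control (log2 -0.41, SE 0.08, adjusted p = 0.0929). It overlaps C9orf116 on the opposite strand, which was higher with both hairpins, at 52.4 and 43.7 FPKM, against 29.2 FPKM in the control. MRPS7 (chr17:75261674-75266373), the counterpart of S7, which organises the head of the small subunit, was at 73.5 and 71.7 FPKM, against 94.4 FPKM in the control (log2 -0.38, SE 0.08, adjusted p = 0.0965). It overlaps GGA3 on the opposite strand, at 13.3 and 10.8 FPKM, against 6.59 FPKM in the control, and MIF4GD, also opposite, at 44.0 and 47.0 FPKM, against 44.3 FPKM. The part of these overlaps in the values was not tested. MRPS25, specific to mitochondria, was at 38.3 and 32.3 FPKM, against 43.7 FPKM in the control (log2 -0.31, adjusted p = 0.219).

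MRPS12, the counterpart of S12 in the decoding centre, was at 51.3 and 45.0 FPKM, against 49.96 FPKM in the control (log2 -0.06, adjusted p = 0.763). The 3 MRPS18 genes encode related proteins, of which the MRPS18A protein sits in the large subunit. MRPS18A was at 57.1 and 59.8 FPKM, against 63.1 FPKM in the control (log2 -0.11, adjusted p = 0.433). MRPS18B had a log2 difference of 0.04 (adjusted p = 0.736). MRPS18C was at 47.8 and 44.8 FPKM, against 45.2 FPKM in the control (log2 0.03, adjusted p = 0.830). The MRPS18 genes thus lay within 0.15 of the control on the log2 scale with either hairpin, and the signs of MRPS18B and MRPS18C turned once the libraries were brought to the same total FPKM (-0.04 for each).

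MRPS30 and MRPS36 also carry names that do not match their place. The MRPS30 protein belongs to the large subunit, and its mRNA was at 62.9 and 60.0 FPKM, against 55.7 FPKM in the control (log2 0.14, adjusted p = 0.333). The MRPS36 protein is now known as a part of the 2-oxoglutarate dehydrogenase complex, and its mRNA was at 22.9 and 22.1 FPKM, against 23.4 FPKM in the control (log2 -0.06, adjusted p = 0.708). Sorting the genes by where the protein sits gave a median of -0.04 for 50 large and -0.01 for 26 small subunit genes. The 45 genes whose protein has a bacterial-type name, which need not match the gene's number, had a median of -0.01. The 32 without had -0.08.

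The hairpins did not always give the same picture. MRPS27, a small subunit protein with RNA-binding repeats, was at 61.2 FPKM with shRNA1 and 90.4 FPKM with shRNA2, against 84.4 FPKM in the control. The shRNA1 library was the low one there, and the log2 difference between the hairpins was -0.56, the largest of the 77 genes. The deposited bounds overlapped, at 8.06 to 114 FPKM with shRNA1, 0 to 184 FPKM with shRNA2 and 13.2 to 156 FPKM in the control. In 21 of 77 genes the gap between the hairpin libraries exceeded the mean difference from the control. No gene moved in opposite directions by at least 0.2 with each hairpin (0 of 77).

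Other mitoribosome proteins carry no MRPL or MRPS name. DAP3, the GTP-binding protein of the small subunit, was at 169 and 157 FPKM, against 155 FPKM in the control. AURKAIP1 was at 91.3 and 79.8 FPKM, against 81.7 FPKM in the control, and PTCD3, a pentatricopeptide repeat protein, at 47.3 and 42.7 FPKM, against 43.7 FPKM. CHCHD1 was at 77.0 and 75.5 FPKM, against 64.4 FPKM in the control (log2 0.24, adjusted p = 0.152). GADD45GIP1, at the exit tunnel, was at 32.3 and 26.9 FPKM, against 25.97 FPKM in the control (log2 0.18, adjusted p = 0.445). None of these 5 was called by limma over all genes (0 of 5, against 0.351% of all tested genes). With MRPL58, already counted among the large subunit genes above, the median of the group of 6 was 0.06, or -0.01 at the same total FPKM.

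The other genes of mitochondrial translation were read from the same limma fit. In that fit 0 genes of any list below were called, against 0.351% of all tested genes. Among protein-coding genes alone, limma called higher 2 of 30 assembly factors, 1 of 18 translation factors, 2 of 13 mitochondrial mRNAs, 5 of 76 respiratory chain subunits and 4 of 78 cytosolic ribosomal proteins, against 7.11% of all protein-coding genes. It called lower 1 of 20 synthetase genes, 1 of 9 genes of mitochondrial transcription and 2 of 76 respiratory chain subunits, against 11.3%. Of 30 assembly factors, 15 were higher and 12 lower with both hairpins, with a median of 0.04 that became -0.03 at the same total FPKM. YBEY, listed here as an assembly factor, was at 22.6 and 19.5 FPKM, against 7.93 FPKM in the control (log2 1.35, SE 0.13, adjusted p = 0.0813). TRMT61B, an RNA methyltransferase, was at 11.9 FPKM with each hairpin, against 7.49 FPKM in the control (log2 0.63, adjusted p = 0.0844). The log2 differences of those 2 exceeded the largest of the ribosomal proteins, 0.61, that of TRMT61B only barely. Every deposited lower bound of TRMT61B was 0. For YBEY the shRNA2 bounds (10.7 to 28.4 FPKM) overlapped those of the control (3.71 to 12.2 FPKM). The shRNA1 bounds of YBEY (12.5 to 32.6 FPKM) did not. METTL17, a factor of small subunit assembly, was at 11.6 FPKM with each hairpin, against 15.4 FPKM in the control (log2 -0.39), and MRM3, an rRNA methyltransferase, at 12.8 and 12.7 FPKM, against 15.7 FPKM (log2 -0.29).

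Of 18 mitochondrial translation factors, 12 were higher and 3 lower with both hairpins, with a median of 0.07 that became -0.001 at the same total FPKM. MRRF, which recycles mitoribosomes after termination, was at 72.8 and 69.2 FPKM, against 50.2 FPKM in the control (log2 0.49, SE 0.09, adjusted p = 0.0863). C6orf203 had a log2 difference of 0.41, C12orf65, a release factor for stalled mitoribosomes, -0.43, and TACO1, a translational activator, -0.13. Of 20 mitochondrial aminoacyl-tRNA synthetase genes, which charge or complete the tRNAs, 12 were higher and 5 lower, with a median of 0.09 (0.01 at the same total FPKM). HARS2 for histidine, at 33.6 and 34.4 FPKM against 43.2 FPKM in the control (log2 -0.34), and FARS2 for phenylalanine, at 19.0 and 21.9 FPKM against 16.0 FPKM (log2 0.34), were the farthest out, followed by WARS2 at -0.31 and MARS2 at 0.28.

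Of 9 genes for transcription and replication of mitochondrial DNA, 3 were higher and 6 lower, with a median of -0.11. At the same total FPKM 1 was higher and 7 lower, with a median of -0.18. POLG, the catalytic subunit of the mitochondrial DNA polymerase, was at 9.25 and 9.94 FPKM, against 22.5 FPKM in the control (log2 -1.19, SE 0.11, adjusted p = 0.0790). The deposited bounds of that control value ran from 0 to 143 FPKM. They enclosed the bounds of shRNA1 (1.64 to 16.9 FPKM) and shRNA2 (2.23 to 17.7 FPKM). POLRMT, the mitochondrial RNA polymerase, was at 7.28 and 5.43 FPKM, against 8.09 FPKM in the control (log2 -0.34). C10orf2, the replicative helicase Twinkle, had a log2 difference of 0.29 and TFB2M, a transcription factor of mitochondria, 0.11. Of 7 upstream regulators past the filter, 3 were higher and 4 lower, with a median of -0.06 (-0.14 at the same total FPKM). NRF1 had the lowest difference of these, at 4.09 and 4.603 FPKM, against 6.33 FPKM in the control (log2 -0.50, adjusted p = 0.134), while PPRC1 and ESRRA, a coactivator and a nuclear receptor, had 0.32 and 0.26.

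The rRNA that these proteins bind was listed higher with both hairpins. MT-RNR1, the small subunit rRNA, was at 48.7 and 43.1 FPKM, against 35.1 FPKM in the control (log2 0.38, SE 0.11, adjusted p = 0.133). MT-RNR2, the large subunit rRNA, was at 206 and 170 FPKM, against 135 FPKM in the control (log2 0.47, SE 0.14, adjusted p = 0.137). Neither was called, and how rRNA was depleted or mRNA selected is not given in the sources used here. Of 13 mitochondrially encoded mRNAs, 6 were higher and 3 lower, with a median of 0.00. At the same total FPKM 6 were higher and 7 lower, with a median of -0.08. MT-ATP8 at 0.56 and MT-CO2 at 0.37 were at the top and MT-ND4L at -0.23 and MT-ND4 at -0.20 at the bottom.

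Cytosolic ribosomal protein genes, for the ribosomes of the cytosol, were mostly higher with both hairpins. Of 78 past the filter, 72 were higher and 3 lower with both hairpins, with a median log2 difference of 0.28 (0.33 with shRNA1, 0.20 with shRNA2), and 0.20 at the same total FPKM. RPL10A and RPL36A were highest, at 0.48 and 0.43, and RPL15 and RPL24 lowest, at -0.11 and -0.10. The 77 mitochondrial ribosomal protein genes had a median of -0.02, or -0.09 at the same total FPKM. Nuclear-encoded respiratory chain subunits lay between, with 52 of 76 higher, 17 lower and a median of 0.14 (0.06 at the same total FPKM), from NDUFS4 at -0.68 and SDHA at -0.43 to NDUFA4 at 0.48 and NDUFB1 at 0.54. None of these lists had a gene called by limma over all genes (0 in each, against 0.351% of all tested genes). The difference between the lists was not tested.

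**Figure D4:**
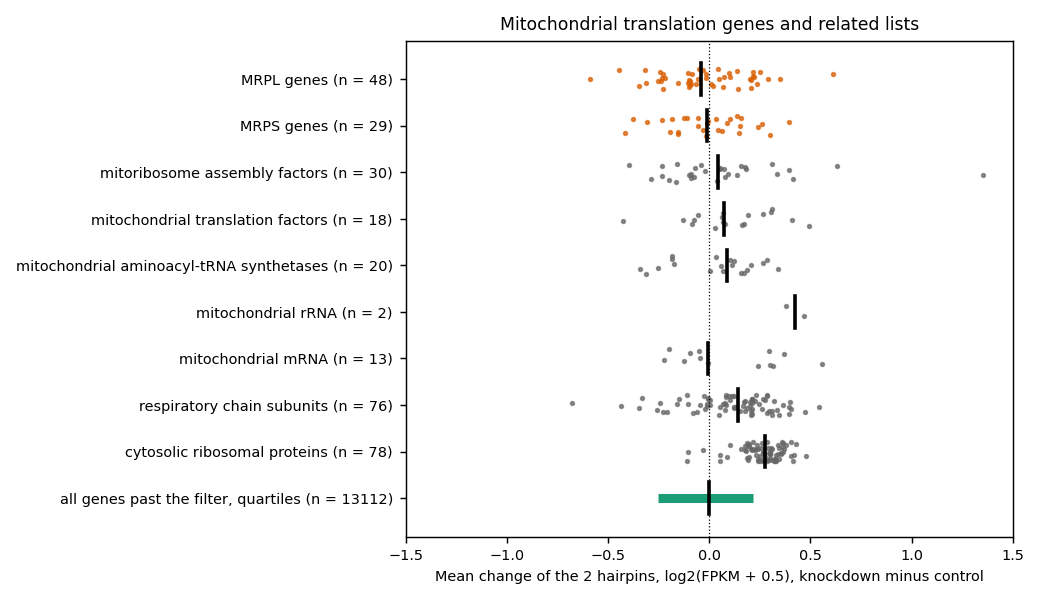
Mean difference of the hairpin libraries from the control in log2(FPKM + 0.5) (x axis) for each gene of the mitochondrial ribosomal protein families and related lists (rows), 1 point per gene, with a black bar at each median and the quartiles of all 13112 tested genes at the bottom. The medians are -0.04 for MRPL and -0.01 for MRPS genes, against 0.28 for cytosolic ribosomal proteins.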

How the data were processed

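RNA sequencing of T47D cells gave 3 libraries, grouped by the genotype label. The authors deposited FPKM with confidence bounds and a status, per the file headers. The submitters' processing notes name STAR, RSEM and GRCh38 but neither role nor version. Not given in the sources used here: confidence level, library kit and strand use. The total of 58039 genes was matched to GENCODE 29 (99.0%).

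Limma 3.58.1 in R 4.3.3 (lmFit, eBayes with trend) tested knockdown against control on log2(FPKM + 0.5) for 13112 genes with a mean of at least 1 FPKM, with Benjamini-Hochberg adjustment at 0.05. It has 1 residual degree of freedom, and the unreplicated control is assumed to vary like the hairpin libraries. The log2 scale with a pseudocount understates the change of low genes. The fit was tested on simulated data, for the direction and size of large planted changes. That test says nothing about differences as small as most of those given here. Tables used pandas 2.3.3 and numpy 2.4.6, and plots matplotlib 3.10.9, in Python 3.11.15.

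Depth was estimated from genes holding a single fragment, whose deposited upper bound is about 3 times the FPKM, before any effective-length correction. In this way between 570 and 670 genes per library were used.

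The members and lists were chosen with earlier results of these data known. Named were the 8 genes farthest out each way among those moving alike with both hairpins, the 3 highest and 3 lowest by control level, genes under the filter, genes called, genes moving in opposite directions by at least 0.2, genes set by role, and 2 genes each way per list. MRPS27 was named after its values were seen.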

Additional observations from a re-analysis of the deposited data

How the results depend on the processing

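No paired analysis was possible because the control has 1 library, so the groups share fewer than 2 replicate numbers.

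Over all genes, 11 were called higher and 35 lower by limma. The counts were 0 and 0 with no filter, 65 and 111 at the same total FPKM, 430 and 595 with robust variances, 821 and 1299 in protein-coding genes alone, and 532 and 769 after removing a trend on length and GC content; without the mean-variance trend 6 were called higher. Of the mitochondrial ribosomal protein genes, 0 were called in either direction, 1 higher with robust variances (MRPL24), 3 higher and 5 lower in protein-coding genes alone, and 1 higher and 2 lower after removing the length and GC trend (MRPL24, and MRPL2 and MRPS7). For MRPL24 the adjusted p ran from 0.0116 to 0.249 over the alternatives.

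At the same total FPKM the median was -0.118 for large and -0.087 for small subunit genes, with all genes at -0.07. With genes lacking an MRP name added, the small subunit median was 0.032 and the large minus small difference -0.063; after removing the length and GC trend that difference was 0.0046. Leaving out each hairpin library in turn gave -0.047 to -0.029 for large, -0.018 to 0.037 for small and -0.066 to -0.029 for their difference.

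Turned in sign were, at the same total FPKM, MRPS24 (-0.012), MRPS18B (-0.035), MRPS18C (-0.044), DAP3 (-0.0096), AURKAIP1 (-0.015) and PTCD3 (-0.036), and after the length and GC trend MRPL12 (0.075), MRPS12 (0.031), MRPS18C (-0.056), DAP3 (-0.012) and PTCD3 (-0.056). Leaving out shRNA1 also turned MRPS34 (-0.013), MRPS18C (-0.015), AURKAIP1 (-0.034) and PTCD3 (-0.032), and leaving out shRNA2 turned MRPL12 (0.029) and MRPS12 (0.037), among 68 such values, which have no test. In the settings with a test, 317 values of named genes kept direction and side of the threshold and 12 were newly called.

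With 1 control library, an error in that library moves every difference. The deposited bounds of the control spanned a median of 44.2% of the FPKM to either side.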

Other observations

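Of the 78 genes, 29 had a protein-coding neighbour on the opposite strand whose start lay within 1000 bp, in 29 distinct pairs. Some of these neighbours overlap the gene. Both genes passed the filter in 26 pairs, and in 15 of these the mean log2 differences of the hairpins had the same sign in both genes. Pearson's r between partners was -0.09 and Spearman's rho -0.01 over 26 pairs, a description over genes of the same 3 libraries. MRPL46 and MRPS11 form a pair of their own, with starts 34 bp apart. MRPL46 was at 38.6 and 36.0 FPKM, against 35.5 FPKM in the control, and MRPS11 at 87.9 and 78.03 FPKM, against 69.0 FPKM.

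Some partners went further than their mitochondrial ribosomal neighbour. SKA3, a kinetochore protein next to MRPL57, was at 3.10 and 3.62 FPKM, against 6.57 FPKM in the control, while MRPL57 was at 19.7 and 20.8 FPKM, against 17.4 FPKM. NCAPD2, a condensin subunit gene that overlaps MRPL51 on the opposite strand, was at 8.72 and 10.7 FPKM, against 15.4 FPKM in the control. MRPL51 was at 50.7 and 54.8 FPKM, against 62.0 FPKM. FAU, a cytosolic ribosomal protein gene next to MRPL49, was at 1014 and 849 FPKM, against 749 FPKM in the control, and MRPL49 was at 87.4 and 93.4 FPKM, against 105.9 FPKM. These pairs were chosen after their values were seen.

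Of 73 listed copies of 34 parent genes, 64 were at 0 in all libraries, and together they summed to 3.61 FPKM with shRNA1, 4.80 FPKM with shRNA2 and 4.36 FPKM in the control. The 2 past the filter copy MRPS31, itself at 12.8 and 13.5 FPKM, against 14.7 FPKM in the control. MRPS31P5 was at 1.74 and 2.06 FPKM, against 1.89 FPKM, and MRPS31P4 at 1.40 and 1.92 FPKM, against 1.95 FPKM, so the value of MRPS31 is uncertain where reads fit either copy.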
